A study of Caenorhabditis elegans with 12 samples.

Results

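The strain hpl-2 I158A was compared with the wild-type strain N2 by RNA sequencing of late-stage Caenorhabditis elegans embryos, with 2 libraries per strain. HPL-2 is a nematode homolog of heterochromatin protein HP1, and I158A names the replacement of an isoleucine by an alanine in that protein. The genes described are those with a normalised read count of at least 10 in at least 2 of these 4 libraries, which were 12370 of the 46904 genes in the deposited table. Of these, 9884 reached 10 in all 4 libraries, 453 did so in both N2 libraries and neither mutant library, and 322 in both mutant libraries and neither N2 library. Where a single strain reached 10, the rule itself fixed the direction of the difference. The members comprised 10076 protein-coding genes, 1525 genes of the annotated type ncRNA, 305 piRNA genes and 258 pseudogenes, with the remainder in smaller classes or without a match in the annotation. The series also holds embryos of met-2 set-25 set-32, of lin-61 hpl-2 and of both single mutants, hpl-2 and lin-61. The labels give no treatment, no second allele in the point mutant and no nature of the allele in the hpl-2 strain. Nothing in them says that the replicates of a strain came from separate cultures. The limma p-values rest on a spread between replicates pooled over 10 libraries of 5 strains, not over these 4 alone. That spread may be technical.

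HP1 proteins bind histone H3 methylated at lysine 9 through a chromodomain, and pair with one another and with partner proteins through a chromoshadow domain. In C. elegans the mark is laid down largely by MET-2 and SET-25, is enriched on the outer parts of the autosomes, and is read by HPL-2, HPL-1, LIN-61 and several chromodomain proteins. HPL-2 acts with the synMuv B proteins, which keep germline genes silent in somatic cells. These are background facts and were not measured here.

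The 4 libraries held 1593546 and 1938072 reads assigned to genes in N2, and 2533102 and 2371696 in the point mutant. A single read was worth 0.9633 to 1.558 normalised counts, so values near 10 rest on few reads. Replicates of N2 differed with a median SD of 0.258 on the log2 scale, and those of hpl-2 I158A with one of 0.150. The other strains in the fit had 0.138 (hpl-2), 0.142 (lin-61) and 0.203 (lin-61 hpl-2). The pooled spread thus draws on strains less variable than N2. Mitochondrial genes took 0.327% and 0.344% of the reads in N2 and 0.103% and 0.0977% in the point mutant, and ribosomal RNA genes 1.81% and 1.41% against 0.636% and 0.412%. This difference in library makeup and the genotype cannot be told apart between these 4 libraries. The 2 libraries of the hpl-2 strain had 0.446% and 0.104% mitochondrial reads. The part of library makeup in the results below was not tested.

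The strand on which reads were counted is not given in the sources used here, and it bears on every gene, with or without another gene opposite it. In 133 pairs of a non-coding gene lying opposite a coding gene, the non-coding gene held more reads per length than the coding gene in 85.7% to 87.2% of them, and the median log2 difference over all pairs was 5.07 to 5.41 in the 4 libraries. Had the reads been counted on the antisense side of each transcript, the value of a coding gene would rest on reads of the wrong strand, which was not tested. Values below are therefore reads assigned to a gene, and genes with a coding gene opposite are named as such. Markers of body wall muscle, intestine, epidermis and neurons were present in all 4 libraries. Of the pharynx markers, myo-2 and tni-4 were present and tnc-2 was not a member. The oocyte and early embryo markers rme-2, oma-1, oma-2, mex-5, pos-1, egg-1 and cbd-1 were also present. Each was higher in both mutant libraries than in both N2 libraries. The sperm genes msp-3 and msp-142 were at 0 in all 4 libraries, and spe-9 was at 1.56 and 8.53 in N2 and 13.5 and 6.11 in the mutant. Of 6 yolk genes of the adult intestine only vit-1 was a member, at 28 and 31.7 in N2 and 19.3 and 20.4 in the mutant.

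The value of hpl-2 itself (WBGene00001996, III:10752195-10755530, minus strand, WBcel235) did not separate the strains. Its values were 304 and 242 in N2, 283 and 244 in the point mutant and 36.2 and 34.5 in the hpl-2 strain. The point mutant lay within the range of N2, with a log2 difference of -0.05 ± 0.218 (SE) and an adjusted p of 0.905 in limma. A point mutation need not alter the level of its own transcript, so the level does not check the label.

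Reads assigned to genes differed between the strains at 3099 of the 12370 members, or 25.1%, at a Benjamini-Hochberg adjusted p under 0.05 in limma. Over all 14640 genes tested the share was 22.1%, with 9.28% higher and 12.8% lower. Of the members, 1340 were higher in hpl-2 I158A (10.8% of the members) and 1759 were lower (14.2%). The falls were larger than the rises: 1229 of the lower genes differed at least 2-fold and 382 at least 4-fold, against 508 and 75 of the higher genes. The median log2 difference was -1.29 among the lower genes and 0.86 among the higher. Shares of calls grew with level. Of members with a mean under 30 over the 4 libraries, 4.46% were higher and 10.9% lower. At a mean of 1000 or more, 30.6% were higher and 15.2% lower. With the spread taken from only the 4 libraries compared, 1638 members were called, 596 higher and 1042 lower. The 4 values did not overlap between strains at 7530 members (60.9%), among them all 1340 rises and all 1759 falls. When each of the 4 libraries was left out in turn, 361 rises (2.92%) and 888 falls (7.18%) were called in every fit, and these are referred to as held. Leaving out a mutant library brought the calls to 1559 without hpl-2 I158A replicate 1 and 1839 without replicate 2, of which 483 and 581 were rises. In the authors' deposited table, 1097 of 12313 members with an adjusted p were under 0.05, 292 of them higher in the point mutant and 805 lower. Genes are named by a rule given with the processing, and each list of genes is described by its own count beside these shares. The lists were written with earlier results of these data known, so their counts are descriptions and not tests.

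**Figure D1:**
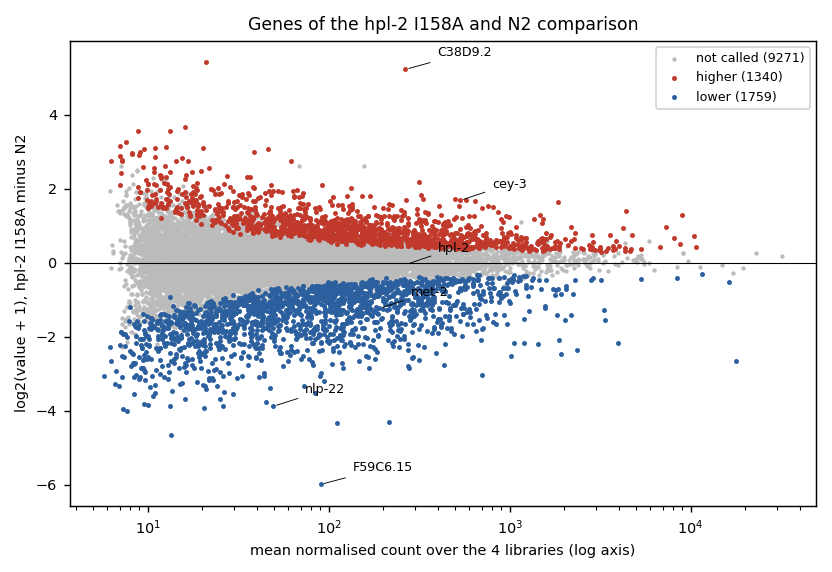
Each point is a member gene, with its mean normalised count over the 4 libraries on a log axis and its difference between hpl-2 I158A and N2 on the log2(value + 1) scale. The 1340 higher genes are red, the 1759 lower genes are blue, and the blue cloud reaches farther from 0 than the red one.

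Among the proteins that write, read or erase H3K9 methylation, 18 genes were measured, 5 were lower in hpl-2 I158A and none was higher, with a median of -0.17 against 0.06 over all members. By edgeR and DESeq2 none was higher either, and 1 was at an unadjusted p under 0.05. Without N2 replicate 2, however, 2 were higher and 7 lower, with a median of -0.31, and without N2 replicate 1 the median was -0.09. The H3K9 methyltransferase gene met-2 (WBGene00019883, III:8375300-8380848) read 266 and 267 in N2 and 111 and 114 in the mutant. Both mutant libraries lay below both N2 libraries, and the difference of -1.24 ± 0.146 (SE) had an adjusted p of 3.68e-05 in limma. The hpl-2 strain stood between them, at 175 and 173. The chromodomain genes cec-1 and cec-8 also fell, cec-1 from 332 and 233 to 107 and 152 and cec-8 from 1044 and 815 to 467 and 469. The calls of cec-5, at -0.48, and of the histone demethylase gene jmjd-1.2, at -0.46, were lost when 1 library was left out. The other HP1 gene, hpl-1, had values of 51.4 and 47.5 against 50.1 and 64.2 (adjusted p = 0.695 in limma). The MBT-repeat gene lin-61 had values of 91.9 and 41.4 against 58.8 and 57.1 (adjusted p = 0.891), a pair whose N2 replicates enclose both mutant values.

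Of 22 synMuv, DREAM and MEC or NuRD factors, 2 were higher and 2 lower, with a median of 0.02. The Mi-2 chromatin remodeller let-418 fell from 2950 and 2789 to 1526 and 1657 (log2 -0.85, adjusted p = 2.66e-05 in limma). The retinoblastoma homolog lin-35 fell from 414 and 260 to 131 and 147, with 20.3% of its span opposite a coding gene. The synMuv A gene lin-8 rose from 143 and 136 to 238 and 239. The rise of ubc-9, the SUMO-conjugating enzyme, from 227 and 239 to 366 and 311 was not called with exon length centred (adjusted p = 0.0645).

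Many listed genes of the oocyte and of the maternal RNA supply rose. Of 33 measured RNA-binding proteins and regulators of the oocyte-to-embryo transition, 22 were higher in hpl-2 I158A and none was lower, and the median log2 difference was 0.88. Of the 22 rises, 12 were held when each library was left out and 8 were called in the fit with all 12 libraries, where 1.07% of the members were higher and 3.57% lower. The Y-box RNA-binding gene cey-3 (I:5571796-5572949) read 212 and 300 in N2 and 808 and 811 in the mutant. The mutant libraries lay together and well above both N2 libraries, a 3.17-fold difference with an adjusted p of 4.67e-06 in limma. In the hpl-2 strain cey-3 was at 291 and 267, within the N2 range. The related gene cey-1 went the other way, from 3519 and 4055 to 3321 and 3101. It was not called (adjusted p = 0.127 in limma), but was called lower with exon length centred (0.0354).

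Several CCCH zinc-finger genes that pattern the early embryo were among the rises. The polarity gene mex-5 read 322 and 431 in N2 and 885 and 908 in the mutant (log2 1.26, adjusted p = 3.67e-05 in limma). The translational regulator pos-1 went from 355 and 434 to 818 and 761 (log2 1.01). The related genes mex-1 and mex-6 rose by log2 1.31 and 1.09, and oma-1 and oma-2, which act in oocyte maturation, by 0.90 and 1.2. The last pair had N2 values of 96.6 and 184 for oma-1 and 63.9 and 138 for oma-2, and their calls did not survive leaving out 1 library. The CCCH gene pie-1, which represses transcription in the germline blastomeres, was not called (adjusted p = 0.283 in limma), with 360 and 190 in N2 enclosing the 334 of both mutant libraries.

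Germline translational regulators of other families rose as well. The DAZ-family gene daz-1 was at 68.5 and 70.7 in N2 and 200 and 201 in the mutant (log2 1.51, adjusted p = 7.31e-05 in limma). The KH-domain repressor gld-1 went from 111 and 167 to 315 and 314, and the Pumilio-family gene puf-5 from 114 and 169 to 354 and 313. The gene zif-1, an adaptor for destruction of germline proteins in somatic blastomeres, went from 65.4 and 79.2 to 184 and 185. In each of these genes every mutant value exceeded every N2 value. No gene of the list was lower by edgeR or DESeq2 either, and 1 was at an unadjusted p under 0.05.

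The surface and eggshell genes of the oocyte showed the same direction, with 11 of 16 measured genes higher, none lower and a median of 1.08. The fertilisation receptor gene egg-1 (III:5728180-5730159) read 17.1 and 29.2 in N2 and 82.8 and 91.7 in the mutant (log2 1.91, adjusted p = 0.000524 in limma). The yolk receptor gene rme-2 went from 34.3 and 87.7 to 195 and 192. The eggshell genes cbd-1, for a chitin-binding protein, and cpg-2, for a chondroitin proteoglycan, went from 372 and 810 to 1333 and 1321 and from 95 and 210 to 358 and 376. The N2 libraries differed from each other at most of these genes while the mutant libraries nearly coincided. Summed over the 18 genes of the list in the table, the values were 1322 and 2593 in N2 and 4315 and 4183 in the mutant, and 1998 and 1872 in the hpl-2 strain. Of the 11 rises, 8 were held and 5 were called with all 12 libraries. One of the held rises, egg-6, from 96.6 and 133 to 349 and 273, is also on the list of epidermal and precuticle genes. No gene was lower by edgeR or DESeq2, and 1 was at an unadjusted p under 0.05. More cells with such RNA and more RNA per cell cannot be told apart in these bulk libraries, nor can fewer cells and less RNA per cell at genes that fell.

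Of 24 P granule and germ cell fate genes, 9 rose and 1 fell, with a median of 0.48. The P granule component pgl-1 went from 99.7 and 89 to 181 and 230 (log2 1.11, adjusted p = 0.000723 in limma). The Argonaute gene wago-1 went from 366 and 518 to 710 and 728, and xnd-1 from 70.1 and 86.5 to 144 and 145. The exception was mes-3, a germline gene for histone H3 methylation outside the H3K9 pathway, which fell from 199 and 161 to 67.4 and 93.7. Only 3 of the 9 rises were held. The rises of wago-1 and prg-1 count again among the small RNA genes, and that of xnd-1 among the meiotic genes. Of 14 measured genes that the zygote switches on early, none was called in either direction, with a median of 0.07. That count was 0 in limma, edgeR and DESeq2, and 1 gene was higher at an unadjusted p under 0.05.

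Of 25 meiotic genes, 4 were higher and 4 lower. Of the rises 2 were held and of the falls none, since 1 fall was called without N2 replicate 1, where 8 genes were higher, and none without hpl-2 I158A replicate 1. With exon length centred 3 were higher and 1 lower. The MutS homolog him-14 rose from 301 and 300 to 697 and 729 (log2 1.24, adjusted p = 1.64e-05 in limma), with 29% of its span opposite a coding gene. Its partner msh-5 read 46.7 and 54.8 in N2 and 25.0 and 28.5 in the mutant, a call lost with exon length centred. The axis gene htp-3 read 59.2 and 74.3 against 121.4 and 115.1, and was not held.

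**Figure D2:**
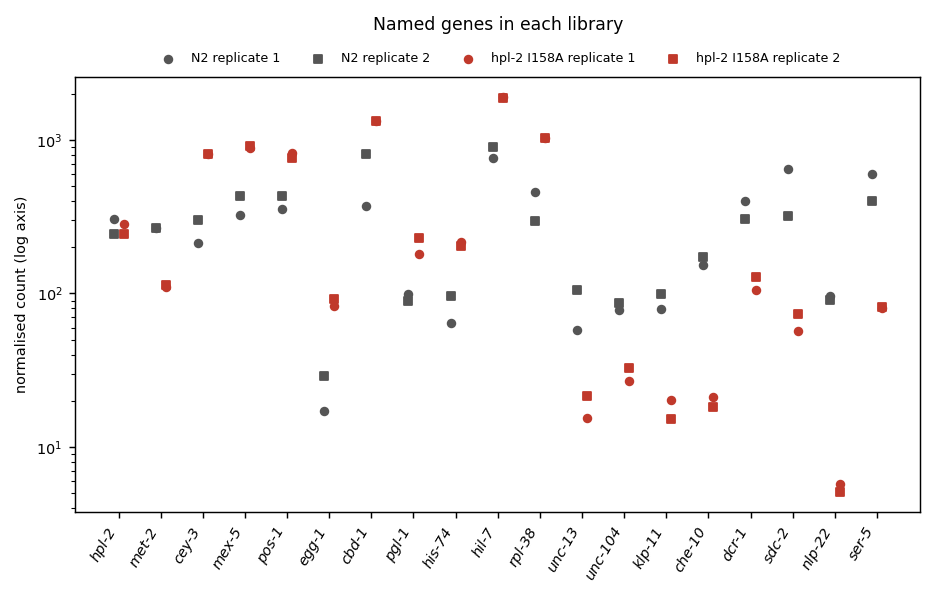
Normalised counts (log axis) of named genes in the 2 N2 libraries (grey) and the 2 hpl-2 I158A libraries (red); circles are replicate 1 and squares replicate 2. From cey-3 to rpl-38 both red points lie above both grey points, from unc-13 to ser-5 both lie below, and at hpl-2 the strains overlap.

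Histone genes included both directions. Of 10 measured H3.3 and linker histone genes, 5 rose and 1 fell. The linker histone gene hil-7 (IV:6646312-6646972) went from 757 and 904 to 1909 and 1872 (log2 1.19, adjusted p = 1.57e-05 in limma). The H3.3 genes his-74 and his-71 went from 63.9 and 96.3 to 215 and 203 and from 113.7 and 138.9 to 261 and 270. In the hpl-2 strain hil-7 was at 1830 and 1846, and the point mutant differed from hpl-2 by 0.04, 0.35 and 0.18 at hil-7, his-74 and his-71, none of them called. The abundant linker histone gene his-24 was lower, at 9438 and 9650 in N2 and 7298 and 7070 in the mutant, and its call was not held. Many core and variant histone genes are near-identical copies whose reads the counting could split. They gave 17 rises and 3 falls among 56 (30.4% and 5.36%), and 8 rises and 5 falls with exon length centred. Without hpl-2 I158A replicate 1 there were 7 rises and without replicate 2 there were 10, and 4 were called with all 12 libraries.

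Of 80 ribosomal protein genes 32 were higher (40%), 1 was lower and 47 were not called, with a median of 0.31. The rises numbered 11 without hpl-2 I158A replicate 1, 18 without replicate 2 and 6 with all 12 libraries, and 11 were held. The largest named rises were those of rpl-41.2, from 363 and 262 to 977 and 970, and rpl-38, from 455 and 297 to 1025 and 1028. The hpl-2 strain gave 1029 and 946 for rpl-41.2 and 1046 and 918 for rpl-38. Over the whole list, by contrast, 48 of 80 genes were higher in the point mutant than in hpl-2 and none lower, with a median of 0.43. These genes are short, with a median exon length of 522 bases, and with exon length centred 18 were higher and 2 lower. Neither the histone nor the ribosomal list was set against genes of like level.

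Secreted hedgehog-related and patched-related genes, which act in the epidermis and its cuticle, gave 9 rises and 1 fall among 46, with a median of 0.31. Only 2 of the 9 rises were called when either hpl-2 I158A library was left out, and none with all 12 libraries. The warthog genes wrt-2 and wrt-1, whose rises were held, went from 301 and 400 to 604 and 570 and from 70.1 and 76.8 to 132 and 157.9. The fall was that of qua-1, from 91.9 and 140 to 52 and 48.9. The small heat shock gene sip-1 went from 626 and 821 to 1282 and 1290, and hsp-12.3 from 4.67 and 6.09 to 32.8 and 35.7. As a member through the mutant alone, hsp-12.3 had its direction fixed in advance. No other of the 17 measured stress chaperone genes was called.

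The largest held rise of a coding gene was that of C38D9.2 (WBGene00008010, V:17567150-17571742). It read 12.5 and 13.4 in N2 and 512 and 524 in the mutant, a 40.1-fold difference (log2 5.22 ± 0.133 SE, adjusted p = 6.97e-12 in limma). The values in the hpl-2 strain were 431 and 408, also far above N2, and the difference of hpl-2 I158A from hpl-2 was 0.30 (adjusted p = 0.101). The other coding genes named for the size of their rise were R12E2.15, R07E5.11, Y57E12AR.1, M01H9.5, cox-17, gur-3, ZK512.4, C24H11.5, F35C11.5 and nta-1, besides egg-1. Their log2 differences ran from 1.89 to 2.74, and only those of R12E2.15, R07E5.11, ZK512.4, C24H11.5 and egg-1 were also called with all 12 libraries. The copper chaperone gene cox-17 read 24.9 and 12.19 in N2 and 74.2 and 81.5 in the mutant, and the gustatory receptor homolog gur-3 went from 59.2 and 45.1 to 201 and 224. Among genes of other types, the ncRNA genes F08F3.13, Y37A1B.335 and F31C3.15 rose most, F08F3.13 from 9.35 and 8.53 to 79.0 and 87.6, and the hpl-2 strain held 79.0 and 83.2. Of their exon length 100%, 98% and 100% lies opposite exons of another gene.

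Neuronal genes of the synapse and its transport were among the falls. Of 38 measured genes for vesicle release and transport, 12 were lower and none was higher, with a median of -0.19. That median was -0.42 without N2 replicate 1 and -0.10 without N2 replicate 2, and 8 of the 12 falls were held. The vesicle-priming gene unc-13 read 57.6 and 106 in N2 and 15.4 and 21.4 in the mutant (log2 -2.05, adjusted p = 0.000196 in limma). The vesicle-recycling adaptor gene unc-41 went from 132 and 158.4 to 36.6 and 45.9, the axonal kinesin gene unc-104 from 77.9 and 86.5 to 27 and 32.6, and the liprin gene syd-2 from 354 and 494 to 167 and 156. At these 4 genes no mutant value reached an N2 value, and the hpl-2 strain was at or above the lower N2 value, with 129 and 111 for unc-13. Further falls were those of the active-zone gene unc-10, the dense-core vesicle gene unc-31 and the neurexin gene nrx-1, at log2 -1.42, -1.75 and -1.47. No gene of the list lies mostly opposite a coding gene. The 12 lower genes had a median exon length of 5316 bases, against 3262 for the whole list, and with exon length centred 9 were lower and 1 higher. Of the whole list, edgeR called 1 gene higher and DESeq2 none, and 2 were higher at an unadjusted p under 0.05.

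Of 34 measured genes of cilia and intraflagellar transport, the two-way traffic that builds the sensory endings of neurons, 14 were lower and none was higher, with a median of -0.83. These genes were low, since 17 of the 51 in the table were not members and 7 of the members reached 10 in both libraries of 1 strain only. The kinesin-II motor gene klp-11 went from 79.4 and 99.9 to 20.2 and 15.3 (log2 -2.28, adjusted p = 6.96e-05 in limma). The retrograde dynein heavy chain gene che-3 went from 48.3 and 18.3 to 3.85 and 6.11, and dyf-11, a transport component, from 29.6 and 30.5 to 9.63 and 9.17. Only these 3 of the 14 falls were held, and DESeq2 called 6 falls in the list. At che-3 and dyf-11 only the N2 libraries reached 10. Both are thus members through N2 alone, which fixed their direction in advance. No gene was higher by edgeR or DESeq2, and 1 was at an unadjusted p under 0.05. Named transport genes that were called and not held were che-11, at 37.4 and 28 against 3.85 and 12.23, and dyf-1, at 112.1 and 85.3 against 34.7 and 53.0. The ciliary rootlet gene che-10 (II:4627811-4638341), which is on none of the lists and was named for the size of its fall, went from 153 and 173 to 21.2 and 18.3. Its fall of 2.98 on the log2 scale had adjusted p-values of 3.93e-07 in limma and 0.000253 with all 12 libraries, and the hpl-2 strain was at 113 in both libraries.

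**Figure D3:**
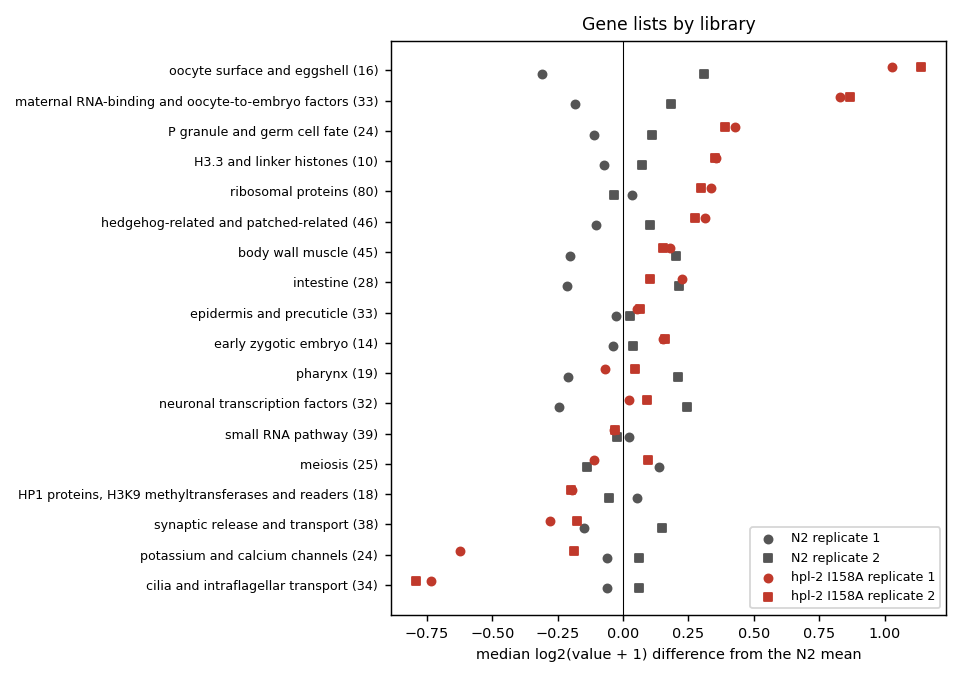
For each list of genes (number measured in parentheses), the median over its genes of log2(value + 1) minus the mean of both N2 libraries, for each library. The hpl-2 I158A libraries lie at 1.03 and 1.14 for the oocyte surface list and at -0.73 and -0.79 for the cilia list, while for body wall muscle, pharynx and neuronal transcription factors they lie within the N2 range.

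Of 32 measured neuronal transcription factor genes, 1 was called. That gene, hlh-34, went from 35.8 and 31.7 to 8.67 and 8.15. By span it lies wholly opposite T01D3.3, with 0% of its exon length opposite exons. The difference between this list and the synaptic and cilia lists was not tested. The TGF-beta ligand daf-7, a sensory neuron product, went from 54.5 and 35.3 to 2.89 and 4.08 (log2 -3.34, adjusted p = 9.87e-05 in limma), with 12.4 and 11.5 in the hpl-2 strain. Tubulin acetyltransferase mec-17 of the touch neurons rose from 322 and 182 to 559 and 618.

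Of 24 potassium and calcium channel genes, 9 fell and 2 rose, with a median of -0.30 that ran from -0.62 to -0.18 when 1 library was left out, and 7 of the falls were held. The potassium channel gene twk-11 went from 101 and 105 to 21.2 and 20.4, and the KCNQ channel gene kqt-1 from 8400 and 4741 to 1339 and 1485. The N2 replicates of kqt-1 differed widely, and 43.8% of its span lies opposite coding genes. The T-type calcium channel gene cca-1 fell by 1.43 and the muscle calcium channel gene egl-19, counted with the muscle list, by 1.22 on the log2 scale.

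Small RNA pathway genes split, with 9 lower and 6 higher among 39. The Dicer gene dcr-1 went from 400 and 305 to 105 and 128 (log2 -1.58, adjusted p = 3.59e-05 in limma). The RNA-dependent RNA polymerase gene ego-1 went from 63.9 and 71.9 to 14.4 and 18.3, and the Argonaute gene rde-1 from 99.7 and 67.0 to 25.0 and 20.4. Values of both polymerase genes rrf-1 and rrf-3 and of the nuclear RNAi gene nrde-2 were also lower, by log2 -1.28, -1.24 and -1.02. The rises were those of the Argonaute genes alg-1, hrde-1, prg-1, wago-1, wago-4 and ppw-1, of which wago-4 went from 54.5 and 48.7 to 113 and 101. The calls of alg-1, hrde-1 and prg-1 were lost without hpl-2 I158A replicate 1, so that 3 of the 6 rises were held against 8 of the 9 falls. The 9 lower genes had a median exon length of 5025 bases and the 6 higher ones of 3238.

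Of 45 muscle genes 7 were lower (15.6%) and 6 higher (13.3%), near the 14.2% and 10.8% of all members. The giant titin gene ttn-1 went from 1000 and 1160 to 387 and 415 (log2 -1.42, adjusted p = 1.43e-06 in limma), with 15.4% of its span opposite coding genes. The ryanodine receptor gene unc-68 went from 685 and 920 to 267 and 263, and the integrin gene pat-2 from 282 and 346 to 153 and 157.9. The rises, among them deb-1 and pat-10, were small and none was held. The 7 lower genes had a median exon length of 6465 bases and the 6 higher ones of 1810. With exon length centred 11 were higher and 6 lower. The marker myosin gene unc-54 was at 1508 and 2840 in N2 and 2455 and 2147 in the mutant, with overlapping strains.

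Of 19 pharyngeal genes 3 were lower (15.8%) and 2 higher (10.5%), near the shares of all members. Intestinal genes gave few calls, with 1 each way of 28 (3.57%). Without N2 replicate 2 the intestinal list gave 6 rises and no fall, and without N2 replicate 1 it gave 2 rises and 3 falls. The pharyngeal troponin genes tnt-4 and tni-4 went from 198 and 275 to 91.5 and 106 and from 90.3 and 91.4 to 42.4 and 32.6. The myosin gene myo-5 went from 104.4 and 261 to 60.7 and 37.7.

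Epidermal and precuticle genes gave 7 calls in each direction among 33, with a median of 0.06. With exon length centred 12 were higher and 4 lower, with a median of 0.31. The lower genes had a median exon length of 4485 bases and the higher ones of 3039. The endocytic receptor gene lrp-1 (I:7614176-7634143) went from 1006 and 1022 to 328 and 371 (log2 -1.54, adjusted p = 1.09e-06 in limma), and the alpha-catenin gene hmp-1 from 430 and 390 to 171 and 168. The GATA factor gene elt-3 read 31.2 and 31.7 in N2 and 66.5 and 84.6 in the mutant, and the apical matrix genes noah-1 and noah-2 were higher by 0.37 and 0.41 on the log2 scale. Of the 7 rises 1 was held and of the 7 falls 3.

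Several genes with little or no coding gene opposite fell, and were chosen after their values were seen, except for dac-1, which the rule named. The chromodomain helicase gene chd-7 (I:4685865-4698575) went from 5308 and 4778 to 1682 and 1771 (log2 -1.54, adjusted p = 4.22e-07 in limma). The Mediator gene dpy-22 (X:9810202-9822273) went from 3195 and 2871 to 701 and 734, the spectrin gene sma-1 from 4604 and 4735 to 1927 and 1944, and the nucleolin gene nucl-1 from 2864 and 2492 to 910 and 1085. All 4 genes had lower values in both mutant libraries than in either N2 library. The dosage compensation gene sdc-2 went from 650 and 317 to 56.8 and 73.4, and the Dachshund homolog dac-1 from 76.3 and 43.9 to 3.85 and 9.17. The gene dac-1 is a member through N2 alone, which fixed its direction in advance. The laminin gene epi-1 fell by 0.72 on the log2 scale and was not called with all 12 libraries (adjusted p = 0.127).

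The falls were more frequent in long genes. Among coding genes with under 700 bases of exon, 19.1% were higher and 8.94% lower, with a median of 0.32. Among those with 3500 bases or more, 7.01% were higher and 33.7% lower, with a median of -0.25. In genes with no coding gene opposite, the same classes gave 19.6% and 3.97%, and 6.62% and 30.8%. Of the long regulators above, chd-7 has 9577 bases of exon, dpy-22 has 10867 and sma-1 has 13098, and their calls held with exon length centred. The part of exon length in the other results was not tested beyond that alternative.

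The largest falls lay mostly in genes nested opposite another coding gene, as did 9 of the 12 coding genes named for the size of their fall. Of 492 coding members with at least 50% of their span within coding genes of the opposite strand, 222 were lower (45.1%) and 21 higher (4.27%), with a median of -0.63. Of 6930 with none, 793 were lower (11.4%) and 721 higher (10.4%), with a median of 0.09. The neuropeptide gene nlp-22 (X:2341359-2342089) read 96.6 and 90.2 in N2 and 5.78 and 5.09 in the mutant (log2 -3.88, adjusted p = 2.48e-06 in limma). Since nlp-22 is a member through N2 alone, its direction was fixed in advance. By span it lies wholly opposite T01B6.1, with 0% of its exon length opposite exons of another gene. The values of T01B6.1 were 54.5 and 64.6 in N2 and 67.4 and 37.7 in the mutant. The gene opposite was thus not called (adjusted p = 0.619) where the nested gene was.

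Whether the gene or the gene opposite gave the reads cannot be told apart, and the following falls share that limit. The coding genes named for the size of their fall included srg-8, lgc-46, F09E5.16, nlp-48, srxa-1, T28C6.8, gnrr-7 and srxa-6. By span all of these lie wholly opposite other coding genes. The share of their exon length opposite exons was 10.2% at T28C6.8 and 0% at the rest. At srg-8, nlp-48 and gnrr-7 neither mutant library reached 10, so membership through N2 alone fixed their direction in advance. The gene T28C6.8 went from 1576 and 932 to 141 and 154, and its opposite gene T28C6.7 from 788 and 569 to 251 and 237 (log2 -1.45, adjusted p = 2.99e-05 in limma). The receptor genes ser-5 and ser-3 went from 597 and 397 to 80.0 and 81.5 and from 919 and 416 to 102 and 123. Their opposite genes T19A6.1 and teg-4 differed by log2 -0.23 and 0.09 and were not called. Of 12 lower neuropeptide genes among 32 measured, 10 were nested in this way, as were 10 of 13 lower chemoreceptor genes among 50. The Argonaute gene sago-2, lower by 2.12 on the log2 scale, lies wholly opposite eme-1 by span, with 0% of its exon length opposite exons.

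**Figure D4:**
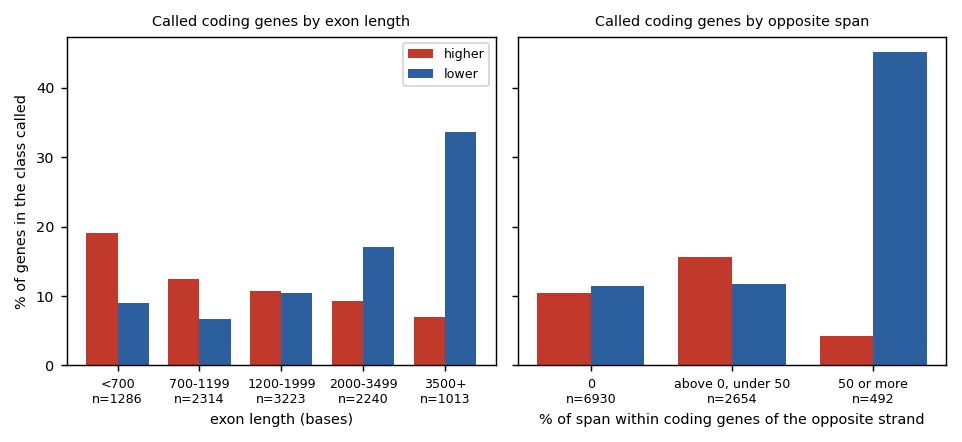
Percent of coding members called higher (red) and lower (blue) in hpl-2 I158A, by exon length (left) and by the percent of a gene's span within coding genes of the opposite strand (right), with the number of genes under each class. The share of lower genes reaches 33.7% in the longest class and 45.1% in the class with at least 50% of its span opposite.

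Falls outside the coding genes followed similar lines. The snoRNA gene F59C6.15 (I:10516978-10517150) read 187 and 171 in N2, 0.963 and 3.06 in hpl-2 I158A, and 0.952 and 0 in the hpl-2 strain. Both N2 libraries thus stood apart from the other 4. Of 305 piRNA genes, 106 were lower (34.8%) and 26 higher (8.52%). Those with a coding gene opposite numbered 257, of which 97 were lower, and of the 48 with none 9 were lower. These are reads of poly(A)-selected libraries assigned to annotated piRNA genes. Whether any came from piRNAs was not tested. The mitochondrial coding gene WBGene00010964 went from 371 and 456 to 19.3 and 20.4, and in the hpl-2 strain it was at 405 and 15.1, following the mitochondrial read share of each library.

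By position, the middles of the autosomes held more falls than their ends. With the ends taken as the outer 30% of each chromosome, 736 of 4347 coding members in the middles were lower (16.9%) and 426 of 4378 at the ends (9.73%). Rises made up 12.5% of the genes in the middles and 11.6% at the ends. The X chromosome had 8.28% higher and 12% lower. Single ends differed from their middles in both directions. On chromosome II, rises made up 7.32% of the left end, 12.5% of the middle and 15.1% of the right end. H3K9 methylation was not measured, exon length was not compared between the parts, and none of these differences was tested.

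**Figure D5:**
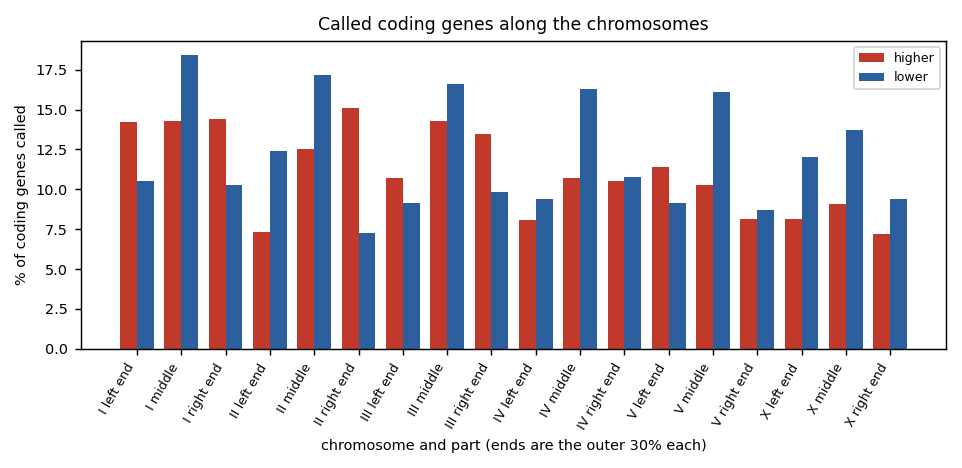
Percent of coding members called higher (red) and lower (blue) in hpl-2 I158A in each part of the nuclear chromosomes, with the ends taken as the outer 30%. On all 5 autosomes the middle has a larger share of lower genes than either end, with 18.4% in the middle of chromosome I.

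Families taken by name that are not described above gave few calls or both directions. Of 111 nuclear hormone receptor genes 6 were higher and 5 lower, of 62 col collagen genes 4 and 4, and of 27 MATH and BTB genes 2 and 4. The collagen counts turned on the N2 libraries, with 6 higher and 17 lower without N2 replicate 1 and 16 and 5 without N2 replicate 2. F-box genes gave 2 rises and 5 falls. C-type lectin genes gave 3 and 5 of 27, glutathione S-transferase genes 2 and 1 of 13, and transthyretin-related genes 5 and 1 of 19. Of 40 ceh homeobox genes 2 were higher and 7 lower, with ceh-92 going from 210 and 130 to 46.2 and 45.9. Ligand-gated and transmitter receptor genes gave 5 and 6 of 49, and receptor guanylate cyclase genes 1 and 2 of 16. Named cuticle collagen genes gave 4 and 3 of 17, genes of transmitter synthesis 2 and 1 of 11, sensory transduction genes 2 and 3 of 11, and the 6 Hox genes 1 rise. Cytochrome P450 and UDP-glucuronosyltransferase genes gave 2 falls each, of 21 and of 27, and no rise in limma, edgeR or DESeq2. The 2 measured sperm genes and 2 major sperm protein genes gave no call by any of these tools.

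Set directly against the hpl-2 strain in the same limma fit, hpl-2 I158A differed at 3963 members (32%), of which 2112 were higher (17.1%) and 1851 lower (15%). The maternal RNA-binding genes were higher than in hpl-2 at 31 of 33, with a median of 1.18, and the oocyte surface genes at 11 of 16, also with a median of 1.18. The P granule genes were higher at 17 of 24 and lower at none. The direct difference was 1.54 for cey-3 (adjusted p = 1.37e-05), 1.40 for mex-5 (1.95e-05) and 1.52 for egg-1 (0.00214). These 3 genes were higher in the point mutant than in both N2 and hpl-2. Core and variant histone genes were higher than in hpl-2 at 35 of 56 and lower at 1.

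Synaptic genes were lower than in hpl-2 at 14 of 38 and higher at 1, and cilia genes lower at 13 of 34 and higher at 1. The direct differences were -2.65 for unc-13 (adjusted p = 2.25e-05 in limma), -2.04 for klp-11 (0.000148) and -2.46 for che-10 (2.73e-06). For met-2 it was -0.62 (0.00541) and for nlp-22 -3.45 (9.45e-06). Single genes of the N2 comparison that were not called against hpl-2 were hil-7, at 0.04 (adjusted p = 0.845), rpl-38, at 0.07 (0.81), and cec-8, at -0.26 (0.146), which does not show that the strains were alike there. The lists that hold hil-7 and rpl-38 did differ from hpl-2, with 6 of 10 H3.3 and linker histone genes and 48 of 80 ribosomal protein genes higher and none lower.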

How the data were processed

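RNA-seq of late-stage embryos was analysed from a deposited table of normalised counts, a signal in which the authors divided whole reads by 1 size factor per library. Multiplied back, 100% of the values came out whole (tolerance 1e-06 reads). A second deposited table gives, per the file headers, the authors' p-value, adjusted p-value and log2 fold change, coded as N2 over mutant and turned round here. Tools named in the submitters' processing notes are featureCounts, STAR and DESeq2, and the builds are ce11 and WBcel235; the sources used here give no versions, annotation or strand setting. Per the labels' protocols the kit was directional with poly(A) selection.

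Tests used limma 3.58.1 (R 4.3.3) with trend on log2(value + 1), which understates changes of low genes, over 14640 genes with at least 10 in at least 2 of 12 libraries. The fit held 10 libraries with genotype as the only term. The met-2 set-25 set-32 genotype was left out of it because 1 of its libraries stands apart. The lin-61 and lin-61 hpl-2 genotypes, which are likewise in no comparison here, were kept for the estimate of the spread. Residual degrees of freedom were 5. Calls were made at adjusted p under 0.05 (Benjamini-Hochberg over all 14640). The method was tested on simulated data. On the recovered reads edgeR 4.0.16 called 3052 members and DESeq2 1.42.0 called 2255, as alternatives, alongside other filters, pseudocounts, scaling and libraries.

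Named were the 12 coding genes with the largest held rise and fall and 3 of other types, with no overlap of strains and a mean of at least 50 in the higher one, up to 4 called genes per list (2 per family) by smallest p, and hpl-2, hpl-1, met-2 and lin-61. In addition, 12 large and 6 abundant falls with under 10% of their span opposite a coding gene, and other list members given as examples, were chosen after their values were seen. Members, lists and rule were chosen with earlier results of these data known. Replicate numbers did not pair the libraries. Symbols and positions are from Ensembl 115 (WBcel235): 46817 identifiers matched and 87 did not. Promoter motifs and sequences were not analysed here. The 23 lists and 19 families by name prefix are described by counts and medians only.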

Additional observations from a re-analysis of the deposited data

How the results depend on the processing

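In the comparison of hpl-2 I158A with N2, the count of genes called higher or lower turned mainly on which libraries set the spread. With all 12 libraries 574 genes were called, 132 higher and 442 lower, and all of these were among the 1340 and 1759 of the fit with 10. With only the 4 libraries compared 1638 were called, 596 higher and 1042 lower. Higher calls came to 770 with all 12 libraries and sample weights, 862 with no filter on low values and 868 with DESeq2. Leaving out 1 library at a time gave 1559 to 3622 calls, 483 to 1649 of them higher and 1076 to 1973 lower. Against hpl-2, the fit with all 12 libraries gave 1041 calls, 526 higher and 515 lower, and leaving out 1 library gave 2208 to 2603, with 1098 to 1271 higher and 1045 to 1332 lower. With all but the second library of met-2 set-25 set-32 the count was 3960, 2101 higher and 1859 lower. With the replicate number as a block, 3079 genes were called against N2 and 3936 against hpl-2. Same-numbered libraries did not deviate together (correlations -0.03 to 0.03), so the numbers pair nothing. The other settings, among them TMM scaling, edgeR, pseudocounts of 0.5 and 5 and a filter on the mean, kept both counts within 1.5 times. Added after the data were seen, centring on exon length gave 3074 calls, and leaving out genes with at least 50% of their span opposite a coding gene gave 2439. No gene called in the fit with 10 libraries was called in the opposite direction under any setting. Settings were not compared with each other, nor at genes that this fit left uncalled. Of 144 named calls, 63 were not called with all 12 libraries, 20 with only the 4 and 22 without hpl-2 I158A replicate 1. The causes were not tested beyond the settings themselves. Genes near 10 normalised counts rest on about as many reads, which limits what could be called.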
